A study of Mus musculus with 6 samples.

Results

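Respiratory complex I was described here through the 45 genes of a count table of 21878 genes whose symbols begin with Nduf followed by a, b, c, s or v. They comprised 36 subunits of the enzyme, 7 assembly factors (Ndufaf1 to Ndufaf7), Ndufa4, and its paralog Ndufa4l2. The count table held no gene under the symbols Ndufb1, Ndufb1-ps or Ndufaf8. Of the 36 subunits, 7 were nuclear-encoded core subunits and 29 were supernumerary subunits. The genes were chosen by name and not by a cut on their values, though with earlier results of these data known. All 45 passed the filter on low counts.

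RNA was sequenced from mouse Achilles tendon tissue, in 3 sham-operated libraries and in 3 whose label reads Achilles tendon amputation, in a study of heterotopic ossification, the growth of bone outside the skeleton. The libraries are called sham 1 to 3 and amputation 1 to 3 after the numbers in their titles. The labels give no strain, age, sex or time after surgery, and do not say whether the libraries came from separate animals. The p-values therefore reflect the scatter among these libraries alone, and that scatter may be technical.

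Complex I, the NADH:ubiquinone oxidoreductase of the mitochondrial inner membrane, takes electrons from NADH, passes them through a flavin and a chain of iron-sulfur clusters to ubiquinone, and pumps protons. Its matrix arm carries the redox centres, and its membrane arm carries the proton channels, whose core subunits are encoded by the mitochondrial genome and are not analysed here. Assembly factors bind or modify intermediates and are not part of the finished enzyme. Skeletal muscle is rich in mitochondria and tendon is not.

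The libraries held 23916839 to 31346730 counts. The 30 skeletal muscle markers took 19.7%, 19.2% and 21.3% of counts in sham 1 to 3, and 1.62%, 0.504% and 15.6% in amputation 1 to 3. By this summed share, amputation 1 and 2 thus stood apart from amputation 3, which lay near the sham libraries. Single markers in amputation 3 went both ways, with log2 differences from the sham mean of -1.32 to 1.35. Of the 30, 15 lay below all 3 sham libraries and 10 above, beside 36.2% and 38.6% of all tested genes. Tenomodulin (Tnmd), a tendon marker, was present in every library, at 30.1 to 56.1 FPKM in sham and 304 to 686 FPKM after amputation, and 5 of 8 tendon markers were higher after amputation. Of the other marker lists, 10 of 10 macrophage and 6 of 8 tested cartilage genes were higher, while 9 of 10 adipocyte genes and 1 of 6 tested erythroid genes were lower (edgeR's quasi-likelihood test, Benjamini-Hochberg adjusted p under 0.05). Of all tested genes, 20.4% were higher and 12.3% lower in the same test, and the 1 of 6 erythroid genes is near that share. No muscle marker was called in that test, although all 30 had negative log2 fold changes. At an unadjusted p under 0.05, 4 of the 30 were lower, beside 20.6% of all genes. In bulk tissue, fewer cells of a type and less RNA per cell cannot be told apart.

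The 45 genes together took 0.313%, 0.358% and 0.399% of counts in sham 1 to 3, and 0.11%, 0.103% and 0.302% in amputation 1 to 3. They were therefore low in amputation 1 and 2, while amputation 3 was by this share just under the lowest sham library. With counts scaled to library size by TMM (CPM), their sum was 3176 in amputation 3, within the sham range of 3062 to 4135. The split of the amputation libraries was the same as for the summed muscle markers, whose part in it was examined only through the covariate fit given below.

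**Figure D1:**
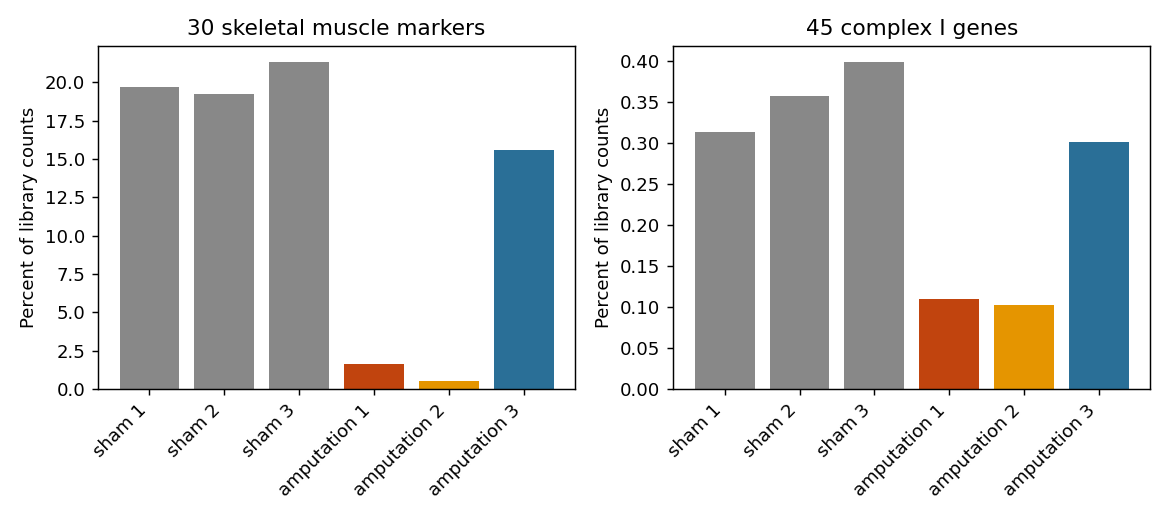
Bars show the percent of each library's counts (y axis) taken by 30 skeletal muscle markers (left) and by the 45 complex I genes (right) in each of the 6 libraries. Amputation 1 and 2 are low in both panels, and amputation 3 stands at 15.6% and 0.302%, near the sham libraries.

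The comparison of amputation with sham asked whether complex I transcripts differed after the injury. Of the 45 genes, 44 had a negative log2 fold change and Ndufa4l2 a positive one. None passed edgeR's quasi-likelihood test at an adjusted p under 0.05, whereas 12.3% of all 14561 genes tested were called lower and 20.4% higher. At an unadjusted p under 0.05, 15 members were lower and 1 was higher, beside 20.6% and 26.5% of all genes. DESeq2 called 17 lower and 1 higher (19.2% and 23.3% of all genes to which it gave an adjusted p), and limma-voom called 6 lower (15.0%) and none higher (20.0%). The replicate number in the titles was also used as a block, a pairing judged from the data and not stated in the labels. With the block, 27 were lower and 1 higher, beside 17.3% and 21.7% of all genes. The choice to read the numbers as pairs was made from the same values that the block then tested. Calls with the block, here and below, are therefore no separate support.

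The 36 subunits had a median log2 fold change of -1.0, from -1.49 to -0.43, where the median of all tested genes was -0.02. The 7 assembly factors had a median of -0.35. These values averaged unlike libraries. Against the sham mean, the subunit medians were -1.80 in amputation 1, -1.78 in amputation 2 and -0.12 in amputation 3 on the log2 CPM scale (counts scaled to library size by TMM). In amputation 1, 44 of 45 members lay below all 3 sham libraries, beside 43.3% of all tested genes. In amputation 2 it was 42, beside 43.7%, and in amputation 3 it was 16, beside 36.2%. Differences of at least 2-fold below the sham mean were seen in 40, 38 and 0 members of amputation 1 to 3, beside 16.7%, 19.2% and 6.33% of all genes. All 3 amputation libraries lay below all 3 sham libraries in 16 members, beside 26.1% of all genes. No test was made on a lone library, and the 3 amputation libraries were set against the same 3 sham libraries.

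**Figure D2:**
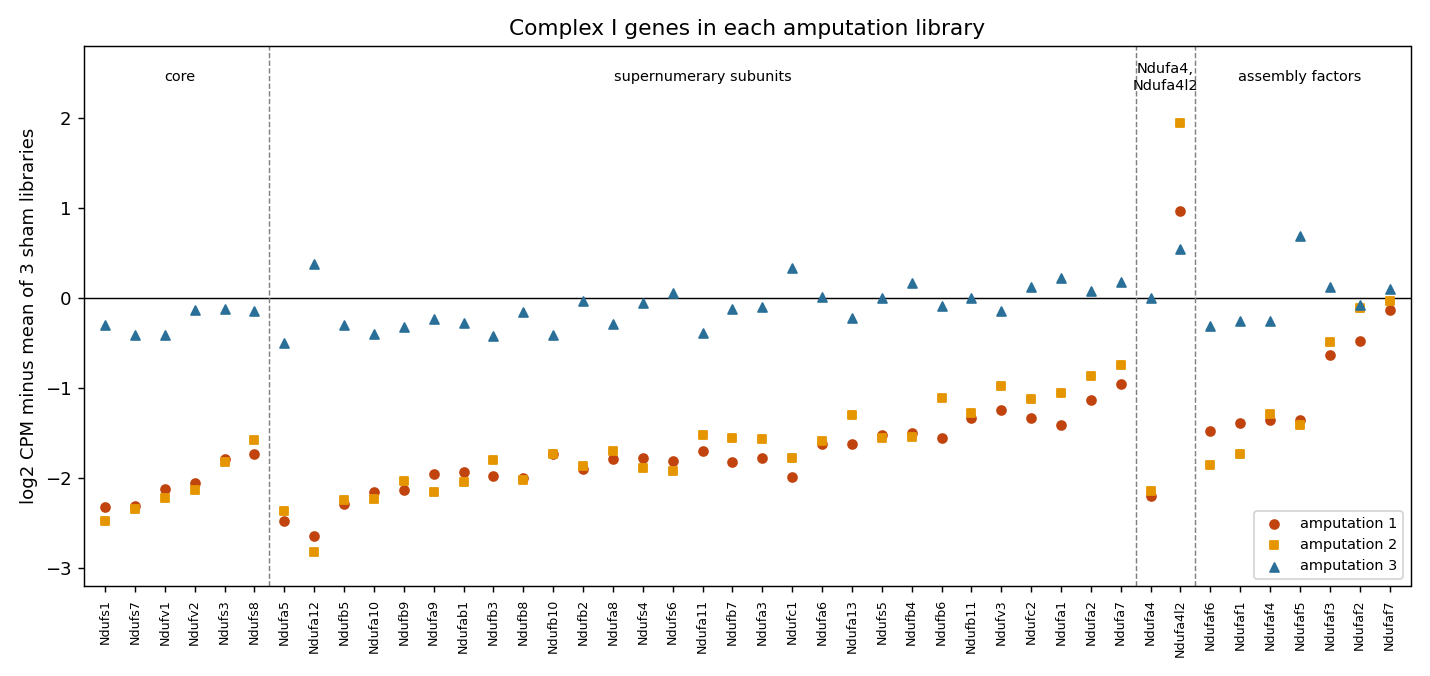
Each point is the log2 CPM of a gene in an amputation library minus the mean of the 3 sham libraries (y axis), with genes ordered by role and then by mean difference (x axis). Amputation 1 and 2 lie between -2.81 and -0.74 for the subunits shown, while amputation 3 lies between -0.50 and 0.38, and Ndufa4l2 lies above 0 in all 3.

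The number of calls turned on amputation 3. Without it, all 36 subunits, 5 of 7 assembly factors and Ndufa4 were lower and Ndufa4l2 was higher, where 29.7% of all tested genes were called lower and 28.5% higher. Without any other library, no member was called, and fewer of all genes were called too: 4.55%, 2.95% and 5.40% of all genes were lower without sham 1, 2 and 3, and 4.68% and 6.05% without amputation 1 and 2. Higher were 10.6%, 7.39%, 9.19%, 10.8% and 12.6% in the same order. No member was called with DESeq2 size factors, no filter or a stricter filter, where 12.9%, 9.68% and 12.7% of all genes were lower and 19.6%, 15.3% and 20.8% higher. When the summed muscle markers (log2 CPM) entered the fit as a covariate, the subunit median was -0.13 and no member was called (5.12% of all genes lower, 10.8% higher). Amputation 3 is the 1 amputation library with a muscle share near that of sham, so this fit leans on it. The summed markers also hide that single markers lay on both sides of sham there.

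**Figure D3:**
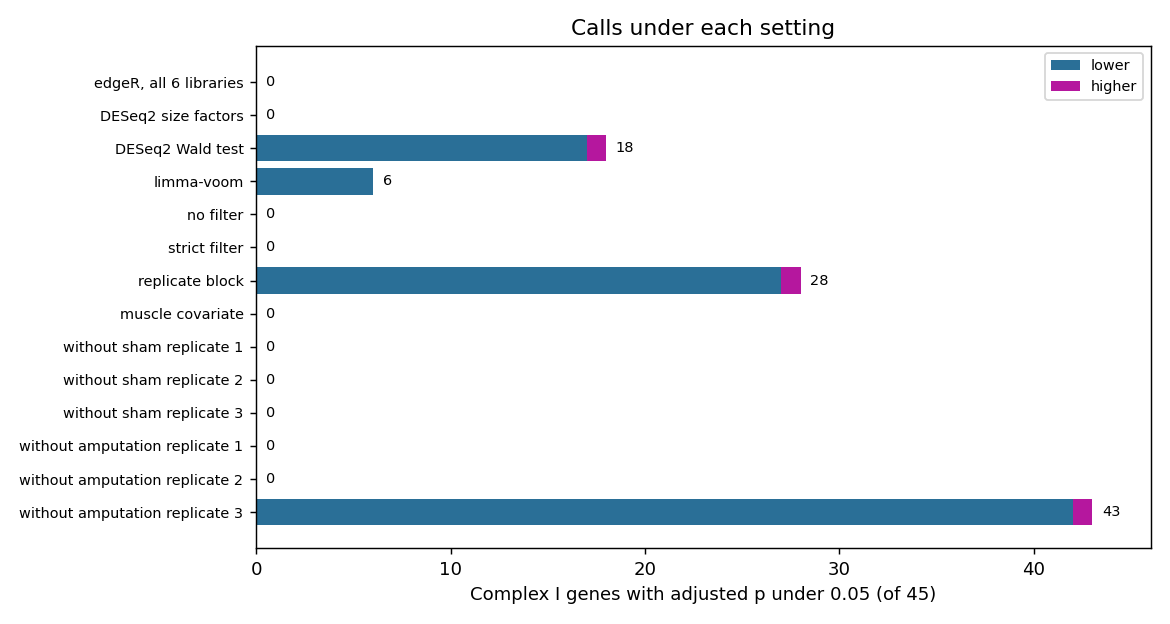
Bars give the number of the 45 complex I genes with an adjusted p under 0.05 (x axis), lower or higher after amputation, under each setting (y axis). Calls were made by DESeq2, limma-voom, the replicate block and without amputation replicate 3, where 43 genes were called.

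The core subunits carry the cofactors. Ndufs1 (chromosome 1, 63143592 to 63176822, GRCm38.p6), the largest core subunit and holder of several iron-sulfur clusters, stood at 283, 325 and 374 CPM in sham 1 to 3 and at 65.4, 58.4 and 264 CPM in amputation 1 to 3. All 3 amputation values lay under the lowest sham value, with amputation 3 close to it. Its log2 fold change was -1.34 ± 0.60 (SE, n = 3 per group; adjusted p = 0.127 in edgeR's test), and it was called with the replicate block (-1.71).

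Ndufv1, which binds NADH and the flavin, stood at 192, 229 and 253 CPM in sham and at 51.2, 47.8 and 168 CPM after amputation. The groups again did not overlap. The log2 fold change was -1.34 ± 0.51 (adjusted p = 0.0858 in edgeR's test), and it was called with the block (-1.59). Ndufs7, which holds the last iron-sulfur cluster before ubiquinone, stood at 76.7, 88.9 and 98.1 CPM in sham and 17.6, 17.2 and 65.9 CPM after amputation. It was the core subunit with the most negative log2 fold change, -1.39 ± 0.55 (adjusted p = 0.0922 in edgeR's test), and was called with the block (-1.70).

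In Ndufv2, Ndufs3 and Ndufs8 the groups overlapped, with amputation 3 within the sham range. Ndufv2, an iron-sulfur partner of Ndufv1, had a log2 fold change of -1.13 ± 0.56 and was not called with the block. Ndufs3, a scaffold of the early matrix arm, had -1.02 ± 0.49, and Ndufs8, which carries iron-sulfur clusters, had -0.97 ± 0.44. Both were called with the block (-1.25 and -1.15), although Ndufs3 has a near-identical copy elsewhere in the transcript set. As a group, the 7 core subunits had medians of -2.05, -2.13 and -0.14 against sham in amputation 1 to 3, and the 29 supernumerary subunits had -1.77, -1.69 and -0.10.

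Among the supernumerary subunits, which surround the core, the smallest p-values belonged to Ndufa11, Ndufb10 and Ndufb3 of the membrane arm and Ndufa5 of the matrix arm. Ndufa11 stood at 50.3, 58.0 and 66.1 CPM in sham and 17.7, 20.1 and 44.2 CPM after amputation, without overlap. Its log2 fold change was -1.09 ± 0.36 (adjusted p = 0.0595 in edgeR's test). Ndufb10 stood at 54.6, 63.3 and 74.9 CPM in sham and 19.2, 19.2 and 47.9 CPM after amputation, also without overlap. Its log2 fold change was -1.16 ± 0.39 (adjusted p = 0.061 in edgeR's test). Ndufb3, at -1.24 ± 0.43, has a near-identical copy in the transcript set, so its counts are uncertain to that extent. Ndufa5 had the most negative log2 fold change of all members, -1.49 ± 0.55. It stood at 56.6, 66.7 and 78.1 CPM in sham and 12.0, 12.9 and 47.0 CPM after amputation, without overlap. All 4 were called with the block.

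The largest p-values among the supernumerary subunits belonged to Ndufa12, Ndufc1, Ndufa1 and Ndufa7. Ndufa12, a matrix arm subunit, stood at 32.3, 36.2 and 79.4 CPM in sham and 7.19, 6.38 and 58.8 CPM after amputation. It was high in sham 3 and in amputation 3 and very low in amputation 1 and 2, at -2.64 and -2.81 against the sham mean, the lowest values of any member. Its highest sham value was 2.46 times the lowest, the widest sham spread of the 45, and a near-identical copy of its transcript makes its counts uncertain. The log2 fold change was -1.03 ± 0.91 (adjusted p = 0.394 in edgeR's test), and it was called with the block (-1.70).

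Ndufa7, a matrix arm subunit, lay at the other end. It stood at 39.0, 42.2 and 51.9 CPM in sham and 22.6, 26.3 and 49.96 CPM after amputation, the smallest difference of any subunit, at -0.43 ± 0.31 (adjusted p = 0.31 in edgeR's test). Amputation 1 and 2 were still below every sham library. Ndufa1, a small membrane arm subunit, had -0.58 ± 0.43, and Ndufc1, another, had -0.76 ± 0.64. None of these 3 was called with the block.

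By arm, the 16 matrix arm subunits had medians of -1.88, -2.00 and -0.12 against sham in amputation 1 to 3, and the 19 membrane arm subunits had -1.77, -1.56 and -0.12. The matrix arm was lower than the membrane arm by the most in amputation 2, and the difference was not tested. Ndufab1, the acyl carrier protein present in both arms, had a log2 fold change of -1.19 ± 0.49.

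To see how members differed from each other, each was set against the median of the 36 subunits in its own library, so that a shared change cancels. On this relative log2 scale, 9 members were lower in all 3 amputation libraries than in any sham library, and 12 were higher, beside 4.05% and 42.4% of all tested genes. Centring on the subunits makes their own split even by construction. The 9 lower ones were all subunits: the core subunits Ndufs1, Ndufs7 and Ndufv1 and the supernumerary Ndufa5, Ndufa9, Ndufa10, Ndufab1, Ndufb5 and Ndufb9. Ndufa5 stood at 0.01, 0.04 and 0.03 relative to the median in sham and at -0.66, -0.69 and -0.32 after amputation.

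The 12 higher ones were the supernumerary subunits Ndufa1, Ndufa2, Ndufa6, Ndufa7, Ndufb4, Ndufb6, Ndufb11, Ndufc2 and Ndufs5 and the assembly factors Ndufaf3, Ndufaf5 and Ndufaf7. No core subunit was among them. Ndufa7 stood at -0.52, -0.62 and -0.56 in sham and at 0.26, 0.33 and -0.23 after amputation. Ndufb4, Ndufb11, Ndufs5 and Ndufab1 have near-identical copies, and Ndufb9 shares exonic bases with another gene on its own strand, so these are uncertain to that extent.

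**Figure D4:**
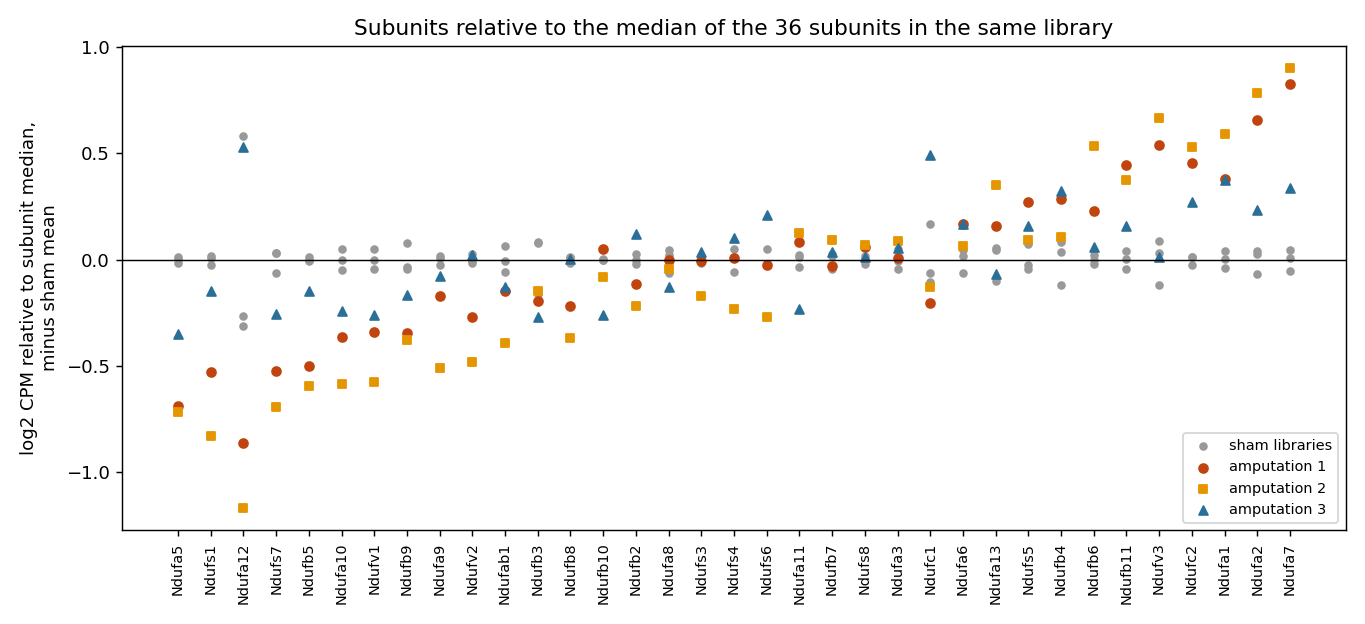
Each point is a subunit's log2 CPM relative to the median of the 36 subunits in the same library, minus the mean of that value over the sham libraries (y axis), with subunits ordered by the mean difference (x axis). Ndufa5 and Ndufs1 lie lowest and Ndufa2 and Ndufa7 highest in amputation 1 and 2, apart from Ndufa12, whose sham libraries spread widely.

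The assembly factors were the least abundant members per length. All 7 ranked from 39 to 45 of 45 by mean FPKM (counts scaled to gene length and library size) in sham and again after amputation. Their median FPKM was 6.03 to 6.84 in the sham libraries, where that of the subunits was 74.1 to 98.1. Ndufa4 ranked at the top in both groups, followed by Ndufb9 and Ndufa3. At 286.7 ± 44.6 FPKM in sham, Ndufa4 lay above Ndufb9 at 226.8 ± 28.9 FPKM. The gap was within their summed spread over libraries, but within each library of both groups Ndufa4 was the higher.

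Ndufaf1, part of the membrane arm assembly complex, stood at 27.6, 27.8 and 35.7 CPM in sham and 11.5, 9.04 and 25.3 CPM after amputation, without overlap. Its log2 fold change was -0.99 ± 0.39. Ndufaf4, which with Ndufaf3 acts on the early matrix arm, had -0.88 ± 0.32, and Ndufaf6 had -1.07 ± 0.41, both without overlap between groups. These 3 had adjusted p-values of 0.078 to 0.0908 in edgeR's test and were called with the block.

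Ndufaf7, an arginine methyltransferase, was nearly level across the 6 libraries. It stood at 15.3, 14.7 and 16.5 CPM in sham and 14.2, 15.2 and 16.7 CPM after amputation, with fully overlapping groups and a log2 fold change of -0.02 ± 0.12 (adjusted p = 0.921 in edgeR's test). Ndufaf3 had -0.31 ± 0.25 and Ndufaf2 -0.25 ± 0.26, and neither was called with the block. Ndufaf2, a paralog of Ndufa12 that holds its place until late assembly, was the least abundant member by count, at 2.0 to 3.13 CPM in sham and 1.71 to 2.28 CPM after amputation, and 1955 of its 2978 annotated exonic bases lie opposite exons of another gene. Against the sham mean it stood at -0.48 and -0.11 in amputation 1 and 2, where Ndufa12 stood at -2.64 and -2.81.

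Ndufaf5, which hydroxylates an arginine of Ndufs7, split the amputation libraries. It stood at 13.7, 14.2 and 18.3 CPM in sham, at 5.96 and 5.74 CPM in amputation 1 and 2, and at 24.6 CPM in amputation 3. Amputation 3 was above every sham library and the other two below them all, so that the log2 fold change of -0.35 ± 0.58 had an adjusted p of 0.655 in edgeR's test. With the muscle covariate it was 0.73 (adjusted p = 0.0847), the smallest adjusted p of any member in that fit.

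Of the 45 members, 39 matched a RefSeq promoter entry in GRCm38.p6. Those without included Ndufa2, Ndufa4l2, Ndufaf6, Ndufb9 and Ndufs1. The 41 promoters of those members span 250 bases before to 50 bases after each gene's start, and were searched on both strands for 4 motifs. The NRF1 motif, the 10 bases in capitals in the sequences that follow, which reads the same on both strands and is bound by a known regulator of respiratory genes, was found in 7.32% of them and in 0.971% of all 32851 promoters. It lay in Ndufa11, Ndufaf4 and Ndufaf5, that is in 3 promoters. The GABP motif CCGGAAG was found in 12.2% against 8.86%, the hypoxia response core ACGTG in 19.5% against 19.6%, and the ERR motif TCAAGGTCA in none of the 41 against 0.423%. A match describes letters and not binding.

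The 250 bases before the start are shown for Ndufa11 and Ndufaf4, where the NRF1 motif lies in that stretch. Both are on the plus strand of GRCm38.p6, at chr17:56717512-56717761 and chr4:24897833-24898082. Ndufa11 had the smallest p of all members and Ndufaf4 that of the assembly factors. Ndufaf5, with an adjusted p of 0.655 in edgeR's test, holds the motif after the start and is not shown. Capitals mark the NRF1 motif, whose first base lies 60 bases before the start of Ndufa11 and 113 bases before that of Ndufaf4.
Ndufa11: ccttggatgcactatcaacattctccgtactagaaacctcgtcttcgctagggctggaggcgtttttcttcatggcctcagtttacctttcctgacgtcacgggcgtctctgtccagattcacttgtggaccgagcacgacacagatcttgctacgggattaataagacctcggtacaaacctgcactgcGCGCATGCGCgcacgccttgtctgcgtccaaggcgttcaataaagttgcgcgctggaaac
Ndufaf4: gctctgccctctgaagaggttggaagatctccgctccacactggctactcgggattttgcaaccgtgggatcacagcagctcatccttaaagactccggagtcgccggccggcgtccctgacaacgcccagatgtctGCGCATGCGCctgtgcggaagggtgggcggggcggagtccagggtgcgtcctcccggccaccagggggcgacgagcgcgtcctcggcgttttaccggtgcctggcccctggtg

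Ndufa4l2 was the member with a positive log2 fold change. Ndufa4 was first named as a complex I subunit and is now assigned to complex IV, and Ndufa4l2 is its paralog, known as a target of hypoxia-inducible factor and as a gene of pericytes. Ndufa4l2 (chromosome 10, 127509274 to 127517154) stood at 34.0, 27.2 and 15.0 CPM in sham and 47.2, 92.7 and 35.2 CPM after amputation. The groups did not overlap, but amputation 3 lay just above sham 1. In these libraries 28.7% of all tested genes were higher without overlap. The log2 fold change was 1.20 ± 0.44, a 2.3-fold difference (adjusted p = 0.0784 in edgeR's test). It was called higher with the block (1.16, adjusted p = 0.0373), by DESeq2 and without amputation 3, and its adjusted p ranged from 0.00973 to 0.664 over the settings, the last with the muscle covariate (0.28). Its exons share 32 of 1095 bases with Shmt2 on the opposite strand. Shmt2 stood at 24.2 to 28.7 CPM in sham and 32.4 to 41.0 CPM after amputation.

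Ndufa4 (chromosome 6, 11900372 to 11907450) stood at 116, 141 and 168 CPM in sham and 30.5, 31.6 and 140 CPM after amputation. Amputation 3 lay within the sham range, and the log2 fold change was -1.07 ± 0.62 (adjusted p = 0.211 in edgeR's test), not called with the block. Per length, Ndufa4l2 was 13.6%, 8.97% and 4.14% of Ndufa4 in sham 1 to 3 and 71.7%, 136% and 11.7% in amputation 1 to 3. In amputation 2 the paralog exceeded Ndufa4, while amputation 3 lay within the sham range. The log2 ratio of the FPKM values was -3.65 ± 0.87 in sham and -1.04 ± 1.84 after amputation (SD, n = 3; two-sided exact permutation p = 0.2, where 0.1 is the smallest that 3 against 3 libraries allow). By FPKM within a library, Ndufa4l2 ranked 37, 37 and 39 of 45 in sham 1 to 3, and 4, 1 and 36 of 45 in amputation 1 to 3, so that amputation 3 again lay with sham.

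**Figure D5:**
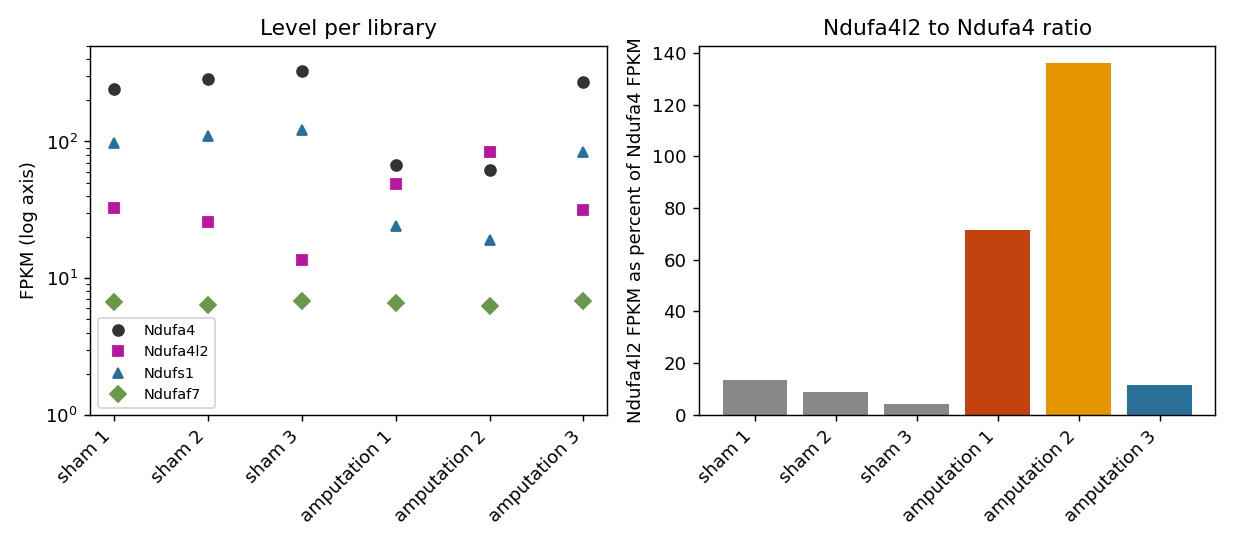
The left panel shows FPKM on a log axis for Ndufa4, Ndufa4l2, Ndufs1 and Ndufaf7 in each of the 6 libraries, and the right panel shows Ndufa4l2 FPKM as a percent of Ndufa4 FPKM. The percent is 71.7 and 136 in amputation 1 and 2 and 11.7 in amputation 3, while Ndufaf7 stays level.

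Of 12 listed hypoxia target genes, 1 was higher and 4 were lower in edgeR's test, beside 20.4% and 12.3% of all genes, and their median log2 fold change was -0.19. Car9, a carbonic anhydrase, rose from 0.272 ± 0.189 to 2.02 ± 0.507 CPM (log2 2.87 ± 0.54, adjusted p = 0.0121 in edgeR's test). Vegfa, the endothelial growth factor, fell from 366 ± 40.2 to 72.9 ± 20.8 CPM (-2.33 ± 0.25, adjusted p = 0.00387 in edgeR's test). The other lower genes were Bnip3, Egln3 and Pdk1, named after their values were seen. Of 10 pericyte markers, 2 were higher (Pdgfrb and Cspg4) and 2 lower (Notch3 and Steap4), and their summed level was 1557 to 1685 CPM in sham and 1509 to 1634 CPM after amputation. The pericyte marker Rgs5 stood at 504 to 576 CPM in sham and 381 to 490 CPM after amputation. The part of pericytes in the Ndufa4l2 values was not tested.

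Of 11 listed assembly factors of complex I that carry other names, 8 were in the tables, all with negative log2 fold changes and a median of -0.67. Of these 8, 1 was called lower, near the 12.3% of all genes. This was Nubpl, which delivers iron-sulfur clusters and fell from 4.05 ± 0.215 to 2.44 ± 0.329 CPM (-0.73 ± 0.19, adjusted p = 0.0297 in edgeR's test). It was not called without any of the sham libraries or amputation 1 or 2 (-0.79 to -0.63), or with the muscle covariate (-0.59). Foxred1, an oxidoreductase-like assembly factor, had a log2 fold change of -0.47 ± 0.16, which missed the threshold (adjusted p = 0.0594, edgeR), and was called with the block.

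Complex II feeds electrons from succinate to the same ubiquinone pool. Its 8 listed genes were the subunits Sdha to Sdhd and the assembly factors Sdhaf1 to Sdhaf4, with no call in edgeR's test. At an unadjusted p under 0.05, 2 of the 8 were lower, beside 20.6% of all genes. The medians of all 8 were -1.45, -1.32 and -0.15 by library, low in the same libraries as complex I, but they mix subunits with assembly factors. Against the sham mean, Sdha to Sdhd stood at -2.12, -2.29, -2.06 and -1.61 in amputation 1. In amputation 2 they stood at -2.45, -2.47, -2.13 and -1.46. Sdhaf1 to Sdhaf4 stood at -0.80, -0.66, -1.28 and -1.24 in amputation 1, and at -0.42, -0.59, -1.17 and -0.89 in amputation 2. The log2 fold change over all libraries was -1.30 ± 0.48 for Sdhc and -1.42 ± 0.57 for Sdhb, and both were called with the block and by DESeq2.

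Of 10 genes of mitochondrial biogenesis, 2 were lower, beside 12.3% of all genes. Ppargc1a, the coactivator that drives it, stood at 82.3, 143 and 125 CPM in sham and at 8.57, 4.15 and 27.8 CPM after amputation. Unlike the complex I subunits, it was well below every sham library in amputation 3 too, at -2.03 on the log2 scale. It fell by 3.11 ± 0.70 (adjusted p = 0.0204 in edgeR's test), and was not called without sham 2, sham 3 or amputation 1 (-2.95, -3.09 and -2.87). Polrmt, the mitochondrial RNA polymerase, fell by 0.83 ± 0.16 and was not called without those same libraries (-0.88, -0.80 and -0.75) or with the muscle covariate (-0.54).

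Of 14 genes listed for mitochondrial mass (import, chaperone and pore genes with Phb, Phb2, Immt and Cs), 1 was lower, beside 12.3% of all genes. Hspa9, a mitochondrial chaperone, fell by 1.19 ± 0.35, from 421 ± 54.1 to 184 ± 90.6 CPM. It was not called without any of the sham libraries or amputation 1 or 2 (-1.28 to -0.99), or with the muscle covariate (-0.53). Tomm40, the import pore, stood at -0.46 ± 0.15 (adjusted p = 0.0513 in edgeR's test), and was called with the block, the stricter filter, DESeq2, its size factors and limma-voom. The list's per-library medians were -1.31, -1.27 and -0.18. Beside these, the 30 muscle markers had per-library medians of -3.54, -4.81 and -0.18, so that in amputation 1 and 2 the complex I subunits were lower by less than the muscle markers. In amputation 3 the muscle markers ran from -1.32 to 1.35.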

How the data were processed

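Libraries were made with a stranded, ribosomal RNA-depleted total RNA kit, per the labels' protocols. The submitters' processing notes name Trimmomatic, HISAT2 and GRCm38.p6. How reads were counted, strand included, is not given in the sources used here. Therefore 17 members with exons opposite another gene, 3 that overlap exons on the same strand (Ndufb2, Ndufb8 and Ndufb9) and 8 with a near-identical copy (at least 95% identity over 200 bases) are uncertain to that extent. The deposited table held raw counts per gene. FPKM values, deposited by the authors in another table, were those counts over gene length and library total, as checked from the values. The closest libraries of a group, sham 1 and 2, had a chi-square per gene of 15.8, so none was treated as a duplicate.

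Counts were fitted for all 14561 genes that passed filterByExpr, with TMM scaling and edgeR 4.0.16's quasi-likelihood test in R 4.3.3, and Benjamini-Hochberg adjustment over all genes. Standard errors were derived from the F statistic. Per-library log2 CPM used a prior count of 2. The fit was tested on simulated data in which genes varied independently and no library was set apart from its group. That test does not cover the split among the amputation libraries. Alternatives were DESeq2 1.42.0 (size factors or Wald test), limma-voom (limma 3.58.1), no filter (at least 1 count), 10 or more counts in every library of either group, the replicate block, a muscle covariate, and each library left out. Same-numbered libraries deviated from their group means together over all tested genes (correlations of 0.259, 0.13 and 0.409), so the numbers were taken as pairs, from the data and not from the labels. Sham 1 also correlated with amputation 2 at 0.244, above the 0.13 of sham 2 with amputation 2, so the pairs are uncertain. P-values with the block do not allow for this choice of pairs.

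Core subunits, Ndufa4, Ndufa4l2, assembly factors, any called member, the 4 smallest and 4 largest p-values among other subunits and the 2 smallest per pathway list were named by rule. Other members were named after their values were seen, and values of 1 member are not reported here. The members and lists were chosen with earlier results of these data known.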

Additional observations from a re-analysis of the deposited data

How the results depend on the processing

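No complex I gene was called in edgeR's test with DESeq2 size factors, no filter, the stricter filter or the muscle covariate. DESeq2's Wald test called 17 lower and 1 higher, limma-voom 6 lower and the replicate block 27 lower and 1 higher. With each library left out, 0 to 42 were lower and 0 to 1 higher, the upper values without amputation 3, where the median of the assembly factors was -1.34 (from -1.34 to -0.16 over the libraries left out, and -0.69 with the block). The subunit median ran from -1.83 to -0.70 over the libraries left out, was -1.24 with the block and -0.13 with the muscle covariate, and kept its sign throughout. With the muscle covariate the log2 fold changes of Ndufa4 (0.018), Ndufaf3 (0.10), Ndufaf5 (0.73), Ndufaf7 (0.093), Ndufa7 (0.16), Ndufa1 (0.19), Ndufc1 (0.34) and Ndufa12 (0.40) were positive, as was Ndufaf7 without amputation 1 (from -0.082 to 0.039 over the libraries left out), and none of these was called. The cause was not tested. The log2 difference of the Ndufa4l2 to Ndufa4 ratio, 2.60, ran from 1.86 to 3.63 over the libraries left out. Of 442 refits of the 34 genes named by rule, 346 kept their direction and side of the threshold, 68 gained a call, 19 lost it and 9 changed sign. Among the genes named by rule outside complex I, the replicate block added calls for Foxred1, Sdhc, Sdhb and Tomm40 and changed no other call. The 3 libraries per group limit every test.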
